A study of Homo sapiens with 6 samples.

Results

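The genes studied here are 34 genes of nucleotide excision repair and DNA damage tolerance, chosen by symbol as XPA, XPC, DDB1, DDB2, ERCC1 to ERCC6 and ERCC8, GTF2H1 to GTF2H5, RAD23B, CETN2, REV1, REV3L, MAD2L2, POLH, POLI, POLK, RAD18, UBE2A, UBE2B, HLTF, SHPRH, USP1, WDR48, PCNA, SMARCAL1, and ZRANB3. All 34 had a row among the 12308 different rows of the deposited expression table. The rule that picks them is a list of symbols and holds no threshold on a measured value. Nucleotide excision repair removes bulky lesions such as UV photoproducts and platinum adducts: a sensor or a stalled RNA polymerase finds the lesion, the helicases of TFIIH open the DNA, and a nuclease cuts on each side before the gap is filled. Damage tolerance leaves the lesion in place. A stalled replication fork is carried past it by translesion polymerases, which are recruited when RAD18 and its partner E2 enzymes ubiquitinate the sliding clamp PCNA, or the fork is reversed by SNF2-family translocases until the block is dealt with.

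Total RNA was sequenced from OVCAR5 and OVCAR5R, 3 cultures each. OVCAR5 is an ovarian cancer line that carries wild-type BRCA genes. OVCAR5R is its derivative resistant to the CHK1 inhibitor prexasertib (Prex), and came from stepwise Prex selection (3 µM at the most). Its standing culture held 2 µM Prex, and a washout of 4 or more days preceded each experiment. The design asks how the resistant line differs from its parent at baseline. One resistant line stands for resistance here, no library was made under Prex, and selection, later culture and any bottleneck cannot be told apart.

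Expression is given as the authors' normalized signal, unlogged. Its low values place each library between 35800000 and 55100000 estimated reads, with more in each OVCAR5R library than in each OVCAR5 library. Of 8 epithelial markers of the labeled cell type, 7 were listed. MUC16 was not listed, and WT1 was under 1 in each library. KRT19 was at 9.99, 1341 and 10.7 in OVCAR5 and 3.09 to 6.04 in OVCAR5R, and PAX8 at 8.38 to 11.4 and 4.38 to 5.66. Both were lower in OVCAR5R without overlap (adjusted p = 0.512 and 0.315, limma). KRT7 went the other way, at 85.8, 939 and 92.7 in OVCAR5 and 431, 465 and 583 in OVCAR5R, with overlap. KRT8 and KRT18 had log2 fold changes of -0.14 and -0.19. KRT8 was at 1094, 7772 and 1031 in OVCAR5 and 1685, 1856 and 2103 in OVCAR5R. By log2 fold change, 1 of the 6 tested epithelial markers was higher in OVCAR5R and 5 were lower. This count rests on OVCAR5 replicate 2. For EPCAM, KRT8 and KRT18 each OVCAR5R library was above OVCAR5 replicates 1 and 3, while KRT19 and PAX8 were below them. OVCAR5 replicate 2 stood apart from the other OVCAR5 libraries: EPCAM was at 15.9, 597 and 11.9 in OVCAR5 replicates 1, 2 and 3, and the 7 listed epithelial markers summed to 2333, 16856 and 2265, against 3542 to 4721 in OVCAR5R. Of fibroblast, leukocyte and endothelial markers, 3 of 13 were listed (COL1A1, PDGFRB and CD14), with COL1A1 and PDGFRB together at 1.77 to 15.4 and CD14 at 2.02 to 20.2. Several results are given with and without OVCAR5 replicate 2. In bulk RNA, fewer cells of a kind and less RNA per cell cannot be told apart.

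None of the 34 genes passed an adjusted p of 0.05 between OVCAR5R and OVCAR5 by limma, a linear model with moderated variances fitted to log2(value + 1) of 11766 genes. Of all genes tested, 14 (0.119%) had an adjusted p under 0.05, 2 of them higher and 12 lower in OVCAR5R. Adjusted p-values of the 34 genes ran from 0.342 to 0.996 in limma. At an unadjusted p under 0.05 there were 3 of the 34, MAD2L2 and RAD18 with higher and ERCC5 with lower means in OVCAR5R, where 10.4% of all genes tested stood. By voom on estimated reads, the other tool run, none of the 34 was called, and none of the 11766 genes tested was called in either direction.

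By the means, 22 of the 34 (64.7%) were higher in OVCAR5R, compared with 49.2% of all genes tested, and the median log2 fold change was 0.11 against -0.01 over all genes. All of the log2 fold changes but 4 were under 0.5 in size. Libraries of the 2 lines did not overlap for 6 of the 34 genes, or 17.6%, and for 16.6% of all genes tested. XPC, RAD23B, GTF2H1, MAD2L2, and RAD18 were the 5 with each OVCAR5R library above each OVCAR5 library, an order that 8.4% of all genes had. The opposite order was found for ERCC5 and for 8.18% of all genes. The share for both directions together, 17.6%, is close to the background of 16.6%. By direction, the 5 of 34 higher are a larger share than the background, and the 1 of 34 lower a smaller share. Whether these shares differ from the background was not tested. An exact two-sided permutation test of 3 against 3 libraries cannot give a p under 0.1, which each of the 6 genes reached. With OVCAR5 replicate 2 left out, the median log2 fold change of the 34 genes was 0.04.

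The 95% interval of the log2 fold change reached between 0.43 and 0.91 to each side of the estimate, and its median reach was 0.56 for the 34 genes and 0.63 for all genes tested. For 26 of the 34 genes the interval lay within 1 on the log2 scale, so a 2-fold difference was outside it. For the other 8, including ERCC5, MAD2L2, RAD18, ERCC6, and REV3L, a difference of that size was inside it. The lowest level of any of the 34 genes, GTF2H2 in OVCAR5 replicate 2, rested on 76.2 estimated reads, for which counting alone gives an SD of 11.5%.

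**Figure D1:**
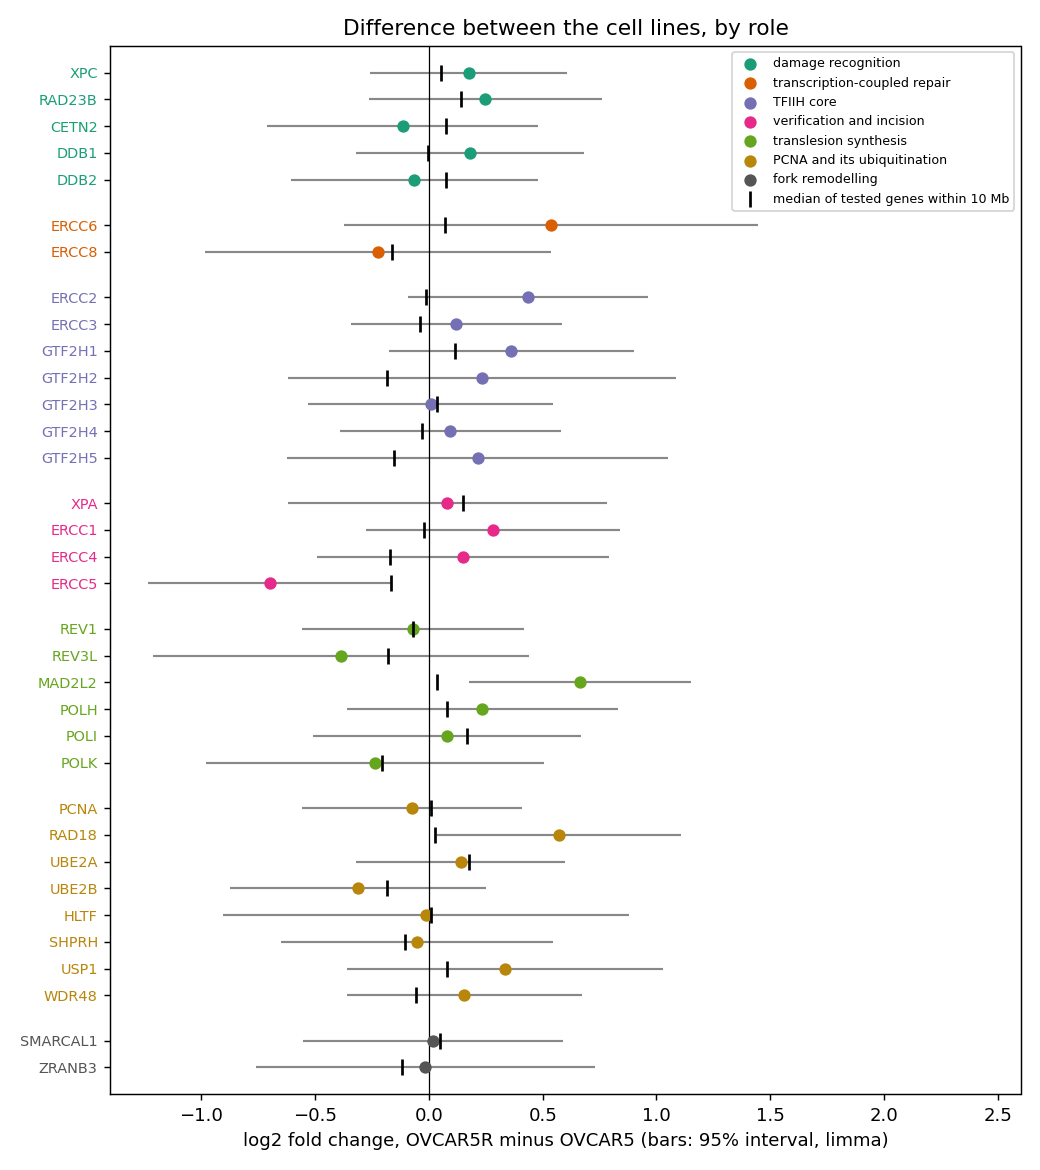
Log2 fold change of OVCAR5R over OVCAR5 for each of the 34 genes (points, colored by role), with the 95% interval from limma (gray bars) and the median of the tested genes within 10 Mb on the same chromosome (black ticks). The intervals of MAD2L2, RAD18 and ERCC5 leave out 0, and no gene passed the adjusted threshold.

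Damage recognition was the first step examined. XPC, the sensor of distorted DNA in the whole genome, was at 31.6, 28.0 and 27.8 in OVCAR5 replicates 1, 2 and 3 and at 34.1, 32.0 and 32.8 in OVCAR5R. The lines did not overlap, but the gap between them was narrow, with a log2 fold change of 0.17 ± 0.19 (SE, n = 3 per line, adjusted p = 0.785, limma). RAD23B, which stabilizes XPC, was at 254, 168 and 255 in OVCAR5 and at 268, 262 and 259 in OVCAR5R. Its 3 OVCAR5R libraries lay within 1.03-fold of each other, and OVCAR5 replicate 2 was the low library. The log2 fold change of RAD23B was 0.25 with this library and 0.05 when it was left out.

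The remaining recognition genes overlapped between the lines. DDB1, the adaptor of the CUL4 ubiquitin ligase that holds the UV sensor, was among the highest of the 34 genes at 441, 347 and 490 in OVCAR5 and 538, 482 and 421 in OVCAR5R. Its log2 fold change was 0.18, and from 0.040 (without OVCAR5 replicate 2) to 0.29 with single libraries left out. DDB2, the UV lesion sensor itself, had a log2 fold change of -0.06, with values from 22.0 to 27.5 in OVCAR5 and from 18.8 to 27.6 in OVCAR5R. CETN2, the centrin that binds XPC, was at 22.2, 34.3 and 20.1 in OVCAR5 and 21.3, 26.6 and 21.1 in OVCAR5R, with replicate 2 the highest library in both lines.

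Transcription-coupled repair starts from a stalled RNA polymerase and uses ERCC6 (CSB), a remodeler that engages the polymerase, and ERCC8 (CSA), which brings a ubiquitin ligase to it. ERCC6 was low, at 5.54, 5.03 and 2.72 in OVCAR5 and 9.50, 3.72 and 8.05 in OVCAR5R. OVCAR5R replicate 2 lay within the OVCAR5 range, and the log2 fold change of 0.54 had the widest interval of all 34 genes, from -0.37 to 1.45. ERCC8 was at 15.5, 11.0 and 15.9 in OVCAR5 and 19.2, 9.52 and 8.94 in OVCAR5R. Its log2 fold change was -0.22, and from -0.55 to -0.041 with single libraries left out. Here OVCAR5R replicate 1 alone was above the OVCAR5 libraries, and the other two were below them.

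TFIIH was the group with the most uniform direction by means: each of its 7 core genes had a higher mean in OVCAR5R, with log2 fold changes from 0.01 (GTF2H3) to 0.44 (ERCC2) and a median of 0.21. None passed the adjusted threshold, and the signs of GTF2H2, GTF2H3, and GTF2H5 turned when single libraries were left out. ERCC2 (XPD), the helicase that opens DNA at the lesion, was at 57.8, 58.8 and 84.0 in OVCAR5 and 105, 87.2 and 77.9 in OVCAR5R. OVCAR5 replicate 3 was inside the OVCAR5R range, and limma gave an adjusted p of 0.544. GTF2H1 (p62), the subunit that docks onto XPC, was at 82.7, 57.2 and 87.6 in OVCAR5 and 88.4, 88.2 and 114 in OVCAR5R. The lines just failed to touch, and the log2 fold change of 0.36 became 0.17 without OVCAR5 replicate 2.

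The rest of TFIIH overlapped between the lines. ERCC3 (XPB), the translocase of the complex, ranged from 57.9 to 66.3 in OVCAR5 and from 56.6 to 77.0 in OVCAR5R. GTF2H5, the small subunit whose loss causes a form of trichothiodystrophy, was at 18.7, 24.1 and 24.4 in OVCAR5 and 34.1, 36.2 and 14.0 in OVCAR5R, so that OVCAR5R held both the highest libraries and the lowest one. GTF2H4, which contacts XPB, had a log2 fold change of 0.09, but 79.0% of its exon bases lie on VARS2 on the same strand, and how reads there were assigned is not given in the sources used here. GTF2H2 was the lowest TFIIH gene at 2.21 to 6.57, and its reads may be divided among near-identical copies. The sum with GTF2H2B and GTF2H2C was 27.6, 16.4 and 38.2 in OVCAR5 and 43.4, 26.3 and 23.3 in OVCAR5R, still overlapping.

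**Figure D2:**
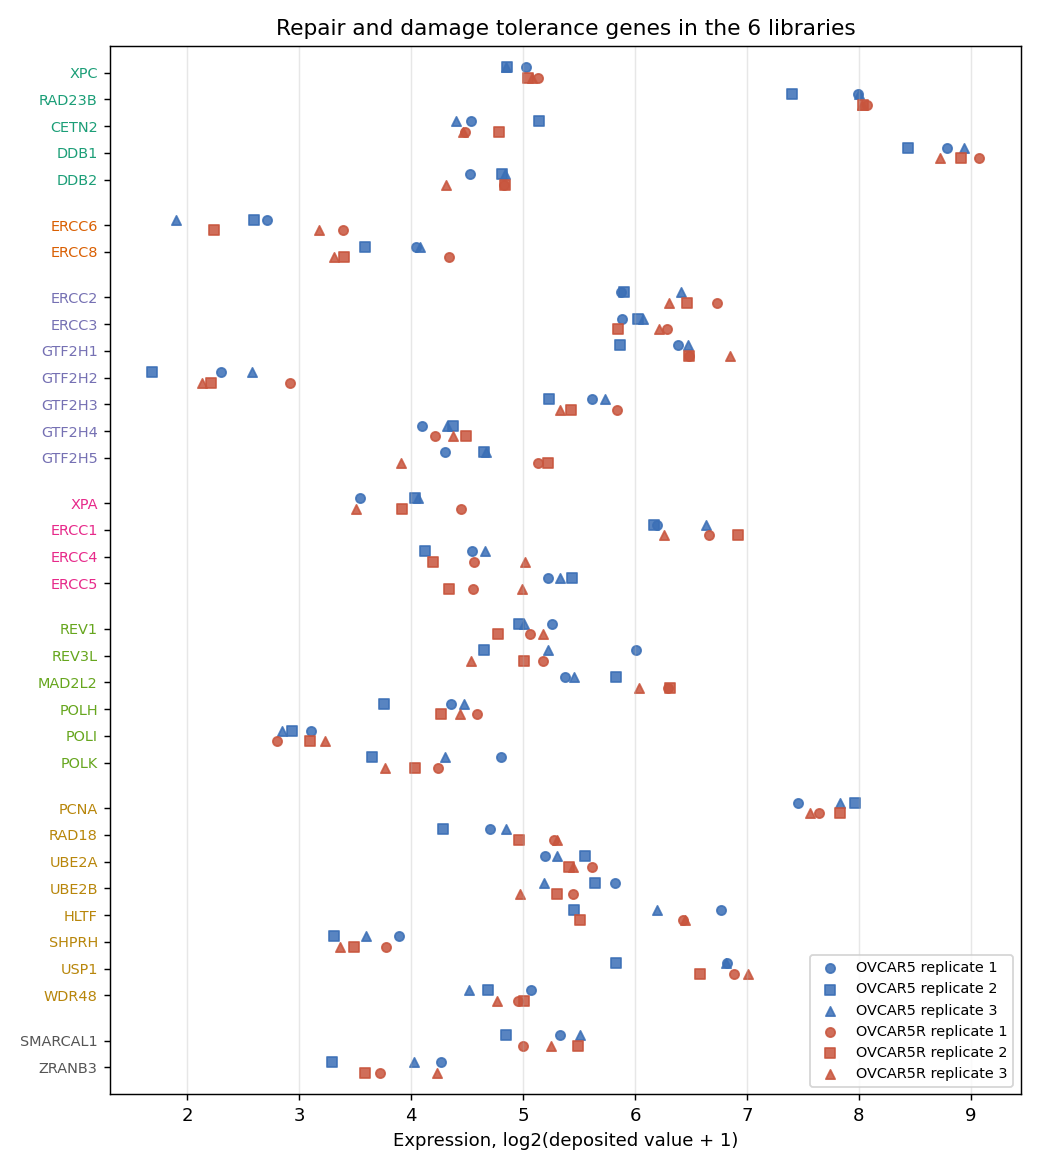
Expression of each gene as log2(value + 1) in the 3 OVCAR5 libraries (blue) and 3 OVCAR5R libraries (red), with the replicate given by the marker shape and gene names colored by role. The red points lie to the right of the blue ones for XPC, RAD23B, GTF2H1, MAD2L2 and RAD18 and to their left for ERCC5, and the blue square of OVCAR5 replicate 2 is the leftmost of 6 points in 15 genes.

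Lesion verification and incision held the gene with the lowest fold change. ERCC5 (XPG), the nuclease that cuts on the 3′ side of the lesion, was at 36.3, 42.2 and 39.1 in OVCAR5 and at 22.4, 19.2 and 30.8 in OVCAR5R. All 3 OVCAR5R libraries were lower, with means of 39.2 ± 2.95 and 24.2 ± 5.99 (SD, n = 3 each). The log2 fold change was -0.70 ± 0.23 (SE), the 95% interval ran from -1.23 to -0.16, and the adjusted p was 0.365 in limma. Leaving out any one library gave log2 fold changes of -0.88 to -0.56. The sign could not turn in these fits, because the lines did not overlap.

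ERCC5 (ENSG00000134899) lies on the plus strand at chr13:102807146-102876001 of GRCh38, and 5213 of its 8242 exon bases are shared with the readthrough gene BIVM-ERCC5. The readthrough row was at 5.70, 6.31 and 7.16 in OVCAR5 and 5.31, 2.36 and 8.64 in OVCAR5R. Adding both rows gave 42.0, 48.5 and 46.3 against 27.7, 21.6 and 39.5, and the lines again did not overlap. The 48 tested genes within 10 Mb of ERCC5 had a median log2 fold change of -0.17, a smaller shift in the same direction. Whether that shift has a part in the ERCC5 value was not tested.

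The cut on the 5′ side is made by the nuclease of ERCC1 and ERCC4 (XPF), which had log2 fold changes of 0.28 and 0.15, and their difference from ERCC5 was not tested. ERCC1 was at 72.4, 70.8 and 98.1 in OVCAR5 and 100.3, 120 and 75.6 in OVCAR5R, and 1593 of its exon bases are covered by CD3EAP on the opposite strand, for which the counting of strand is not given in the sources used here. ERCC4 was at 22.3, 16.4 and 24.3 in OVCAR5 and 22.6, 17.3 and 31.3 in OVCAR5R. The lines interleaved, and the log2 fold change of ERCC4 ran from -0.062 to 0.35 with single libraries left out. XPA, the scaffold that checks the open lesion, ranged from 10.6 to 15.7 in OVCAR5 and from 10.4 to 20.8 in OVCAR5R, the latter enclosing the former.

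Among the translesion synthesis genes, MAD2L2 had the largest difference and the highest mean in each line. In OVCAR5 the mean of REV3L was near it, at 41.2 ± 20.0 (SD, n = 3). MAD2L2 (REV7), the small subunit that links REV3L to REV1 in polymerase zeta and is also part of shieldin, was at 40.4, 56.0 and 42.7 in OVCAR5 and at 77.5, 78.5 and 64.6 in OVCAR5R. The lowest OVCAR5R library was above the highest OVCAR5 library, with means of 46.3 ± 8.41 and 73.5 ± 7.75 (SD, n = 3 each). Its log2 fold change of 0.66 ± 0.21 (SE) was the highest of the 34 genes and had their lowest adjusted p (0.342, limma). With single libraries left out, the log2 fold change of MAD2L2 ran from 0.57 to 0.80. The lowest was without OVCAR5 replicate 1 (adjusted p = 0.576, limma). The highest was without OVCAR5 replicate 2, the OVCAR5 library nearest to OVCAR5R (adjusted p = 0.226, limma). MAD2L2 (ENSG00000116670) lies on the minus strand at chr1:11674480-11691650, and the 135 tested genes within 10 Mb had a median log2 fold change of 0.04.

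REV3L, the catalytic subunit of polymerase zeta that MAD2L2 serves, was at 63.2, 24.1 and 36.2 in OVCAR5 and 35.1, 31.2 and 22.2 in OVCAR5R. Its OVCAR5 libraries differed by 2.63-fold, the widest spread within a line among the 34 genes, and the log2 fold change of -0.38 became -0.71 without OVCAR5 replicate 2 and -0.03 without OVCAR5 replicate 1. REV1, the scaffold of the other polymerases, ranged from 30.2 to 37.2 in OVCAR5 and from 26.3 to 35.2 in OVCAR5R, a log2 fold change of -0.07.

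The Y-family polymerases overlapped between the lines. POLH, polymerase eta, which copies past UV dimers, was at 19.4, 12.5 and 21.2 in OVCAR5 and 23.0, 18.2 and 20.6 in OVCAR5R. OVCAR5 replicate 2 was the low library of POLH, and its log2 fold change was 0.23 with and 0.016 without it. POLI, polymerase iota, was the lowest of the group, at 6.18 to 7.62 in OVCAR5 and 5.98 to 8.37 in OVCAR5R. POLK, polymerase kappa, was at 26.8, 11.6 and 18.7 in OVCAR5 and 17.9, 15.4 and 12.6 in OVCAR5R. All OVCAR5R libraries of POLK lay inside the 2.32-fold range of OVCAR5, and its log2 fold change ran from -0.54 to 0.04 as single libraries were left out.

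RAD18, the E3 ligase that ubiquitinates PCNA at stalled forks, was at 25.0, 18.4 and 27.7 in OVCAR5 and at 37.8, 30.1 and 38.4 in OVCAR5R. All OVCAR5R libraries were higher, with means of 23.7 ± 4.79 and 35.5 ± 4.65 (SD, n = 3 each). The log2 fold change was 0.57 ± 0.23 (SE, adjusted p = 0.451, limma), and 0.41 (adjusted p = 0.56) without OVCAR5 replicate 2, its lowest library. RAD18 (ENSG00000070950) lies on the minus strand at chr3:8775402-8963773, and the 68 tested genes within 10 Mb had a median of 0.03.

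RAD18 pairs with the E2 enzymes UBE2A and UBE2B. UBE2A was at 35.5, 46.1 and 38.6 in OVCAR5 and 48.0, 41.4 and 42.6 in OVCAR5R, a log2 fold change of 0.14. UBE2B, its close paralog, was at 55.5, 48.9 and 35.5 in OVCAR5 and 42.5, 38.5 and 30.3 in OVCAR5R, a log2 fold change of -0.31. PCNA, the substrate and sliding clamp, was at 175, 249 and 226 in OVCAR5 and 199, 226 and 188 in OVCAR5R, so the OVCAR5R libraries all fell inside the OVCAR5 range. Its log2 fold change was -0.07, with a 95% interval from -0.56 to 0.41.

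The ligases that extend the ubiquitin chain on PCNA, HLTF and SHPRH, had log2 fold changes of -0.01 and -0.05. HLTF was among the most variable of the 34 genes, at 108, 42.8 and 72.3 in OVCAR5 and 84.9, 44.6 and 86.2 in OVCAR5R. Replicate 2 was the low library of both lines, and the 95% interval from -0.90 to 0.88 nearly spanned a 2-fold difference either way. SHPRH ranged from 8.88 to 13.8 in OVCAR5 and from 9.29 to 12.7 in OVCAR5R. USP1, the protease that removes ubiquitin from PCNA, was at 112, 55.8 and 111 in OVCAR5 and 117, 94.5 and 127 in OVCAR5R, and its log2 fold change of 0.34 came down to 0.01 without OVCAR5 replicate 2. WDR48 (UAF1), the partner that activates USP1, ranged from 21.8 to 32.5 in OVCAR5 and from 26.3 to 31.2 in OVCAR5R.

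Fork reversal is the work of SNF2-family translocases. SMARCAL1, which is brought to forks by RPA, was at 39.1, 27.8 and 44.6 in OVCAR5 and 31.0, 43.9 and 37.1 in OVCAR5R, a log2 fold change of 0.02 with a 95% interval from -0.55 to 0.59. ZRANB3, which binds ubiquitinated PCNA, was at 18.3, 8.80 and 15.3 in OVCAR5 and 12.2, 11.0 and 17.8 in OVCAR5R, a log2 fold change of -0.02 with an interval from -0.76 to 0.73. Without OVCAR5 replicate 2 the log2 fold changes were -0.17 for SMARCAL1 and -0.30 for ZRANB3. HLTF, given with the ligases, also reverses forks.

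Levels per kilobase of transcript let the genes be compared with each other. The length is that of a single annotated transcript per gene, and the order between genes depends on this choice. Within each of the 7 roles the order of the means was the same in OVCAR5 and OVCAR5R. PCNA was highest, with means of 160 ± 28.0 and 150 ± 14.4 per kb (SD, n = 3 each) in OVCAR5 and OVCAR5R, followed by DDB1 at 94.5 and 107 and RAD23B at 54.7 and 63.8. ERCC6 and GTF2H2 were lowest at 0.554 and 0.854 per kb in OVCAR5, with SDs of 0.188 and 0.322, so that the ranges of mean ± SD overlapped. The place of GTF2H2 is uncertain, because its reads may be divided among near-identical copies. In the recognition group XPC was the lowest at 7.60 per kb in OVCAR5, well under its partner RAD23B. Of the incision nucleases, ERCC1 was at 21.0 and 25.7 per kb and its partner ERCC4 at 3.10 and 3.51, a gap larger than the spread of either. ERCC5 lay between these, at 7.71 ± 0.581 in OVCAR5 and 4.76 ± 1.18 in OVCAR5R. In the translesion group MAD2L2, at 24.9 and 39.5 per kb, was far above its partner REV3L at 3.81 and 2.73, whereas REV3L, POLH, and POLK neighbored each other within their SDs in OVCAR5. UBE2A (21.4 ± 2.89) and UBE2B (18.5 ± 4.06) did not differ beyond their spread in OVCAR5.

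**Figure D3:**
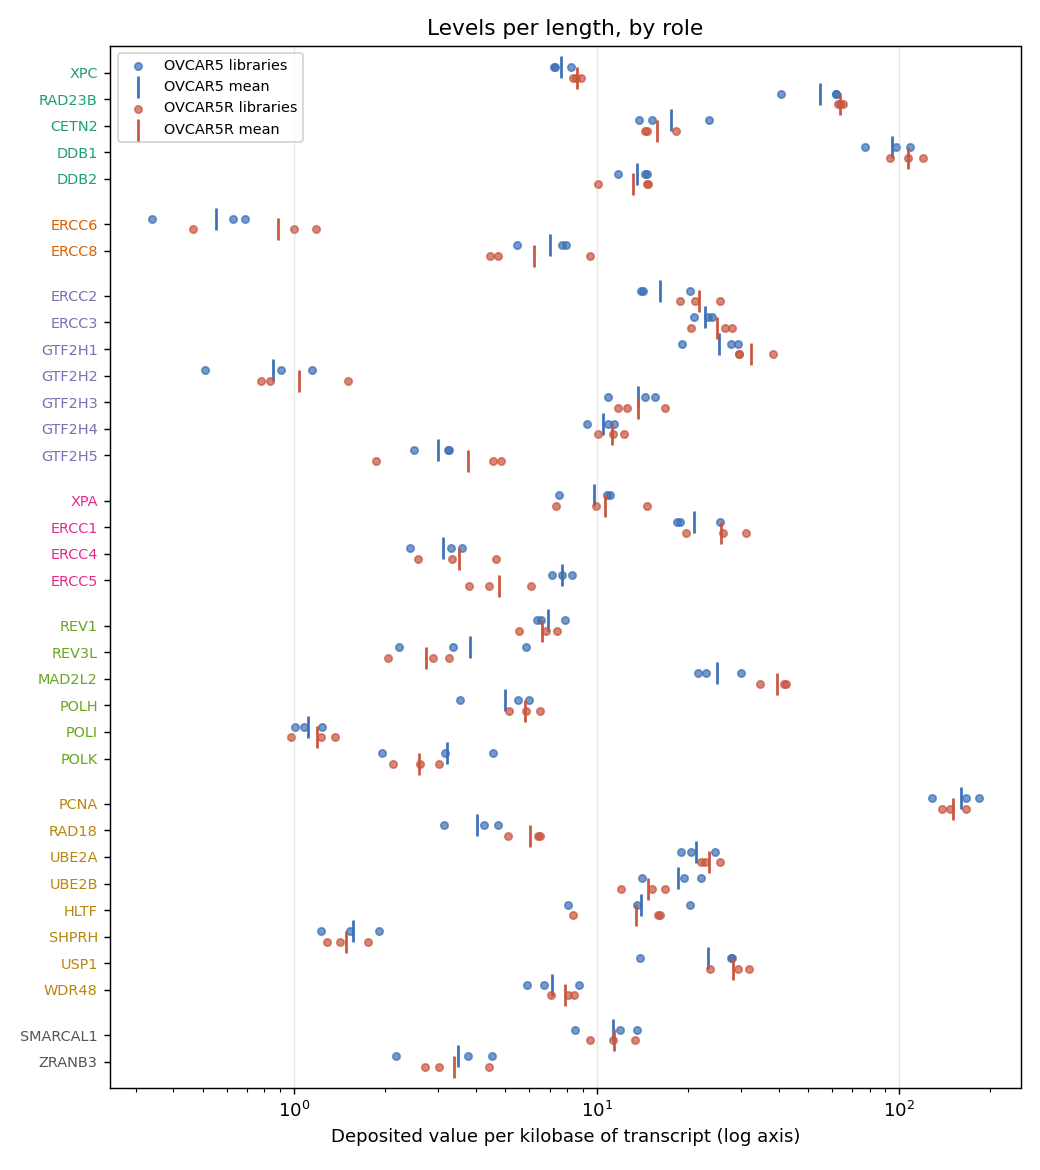
Deposited value per kilobase of transcript (log axis) for each gene, with the single libraries as dots and the mean of each line as a vertical tick (OVCAR5 blue, OVCAR5R red). PCNA, DDB1 and RAD23B are highest and ERCC6 and GTF2H2 lowest in both lines, and the order within a role is the same for the 2 lines. The reads of GTF2H2 may be divided among near-identical copies.

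Deviations of single libraries were set against transcript length. For each library the deviation of a gene from the mean of the other 2 libraries of its line was compared with transcript length across genes, which share the libraries and are not independent. In OVCAR5 replicate 1 longer genes were higher, with a Spearman rho of 0.50 over 11695 genes and 0.52 over the 34 genes. In OVCAR5 replicate 2 longer genes were lower, with a rho of -0.40 and -0.44. Within a line the deviations of a gene cancel out when added, so the trends of its libraries are not independent of each other. The other 4 libraries had a rho from -0.28 to 0.21 over all genes and from -0.30 to 0.20 over the 34 genes.

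In OVCAR5 replicate 2 the 34 genes followed the pattern of the whole table for short and long genes, but were lower than it in between. All genes were split by length into 3 classes of equal size. Of the 8 that belong to the class of short genes (up to 2372 bases), 7 were above the other OVCAR5 libraries in replicate 2, among them PCNA, MAD2L2, CETN2, and UBE2A, with a median deviation of 0.27. Of the 13 in the class of long genes (over 4244 bases), 10 were below them, with a median of -0.44, and REV3L, POLK, HLTF, and RAD18 were among these. Over all genes tested the medians were 0.28 for short and -0.33 for long genes. Of the 13 in the middle class, 11 were below the other OVCAR5 libraries, with a median of -0.45. Bins of all genes with median lengths from 2440 to 4133.5 bases had medians from 0.08 down to -0.20. Across all lengths the median deviation of this library was -0.24 for the 34 genes and -0.02 for all genes. OVCAR5 replicate 2 was the lowest OVCAR5 library for 18 of the 34 genes, and OVCAR5R replicate 3 was the lowest OVCAR5R library for 18. The share over all genes is not given here. Each library was also corrected for transcript length, an alternative added after the data were seen. Log2 fold changes were then 0.72 for MAD2L2, 0.61 for RAD18, and -0.67 for ERCC5, and the median of the 34 genes was 0.16. Of the 34 genes, 4 had no overlap after this correction. The share of all genes without overlap after it is not given here, so this count has no background. The adjusted p of MAD2L2 was 0.219 in limma after the correction. The part of the length pattern in the other values was not tested.

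**Figure D4:**
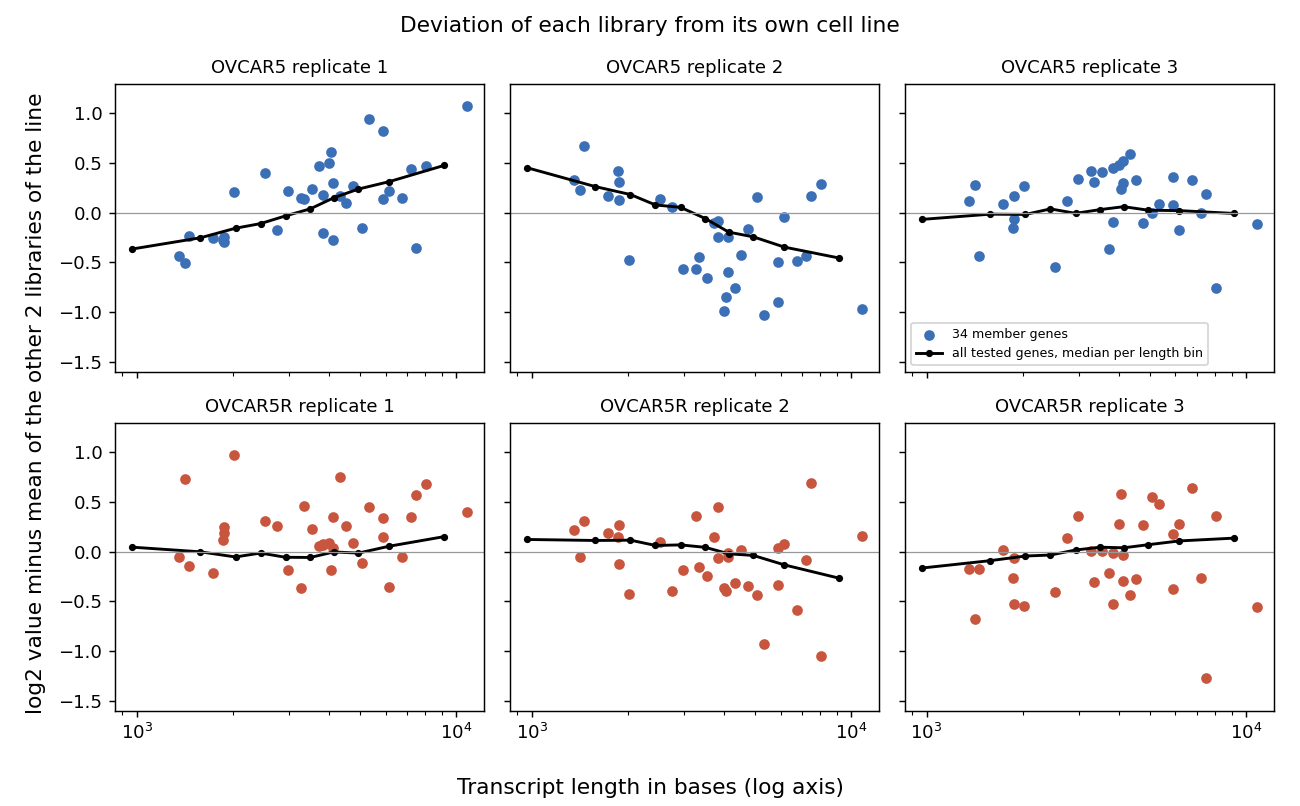
Deviation of each library from the mean of the other 2 libraries of its line (log2 scale) against transcript length (log axis), for the 34 genes (points) and as the median of all tested genes in bins of length (black line). The line rises in OVCAR5 replicate 1 and falls in OVCAR5 replicate 2, and the points of the 34 genes follow it.

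The other genes of these pathways were taken from lists of symbols, and none of them passed the adjusted threshold. Of 18 further nucleotide excision repair genes, 10 had a higher mean in OVCAR5R and the median log2 fold change was 0.02. MNAT1, the assembly factor of the TFIIH kinase, was at 37.8, 40.9 and 39.4 in OVCAR5 and 63.8, 54.8 and 57.3 in OVCAR5R (log2 fold change 0.56, adjusted p = 0.359, limma), with no overlap. CUL4B, the ligase scaffold of DDB1, had a log2 fold change of 0.63, while RBX1, the RING subunit of the same ligase, had -0.67. Both overlapped between the lines. The subunits of RPA, the single-strand binder of the open lesion and of stalled forks, had log2 fold changes of 0.41 for RPA1, 0.32 for RPA2, and -0.31 for RPA3.

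Of 13 genes for repair synthesis, which fills the gap after incision, 9 had a higher mean in OVCAR5R, with a median log2 fold change of 0.17. POLE2, a subunit of polymerase epsilon, was at 12.6, 15.0 and 17.7 in OVCAR5 and 23.6, 27.1 and 21.4 in OVCAR5R (log2 fold change 0.64, adjusted p = 0.391, limma). The clamp loader subunits RFC4 and RFC2 had 0.39 and -0.20, and POLD4, a small subunit of polymerase delta, had -0.58. Of 14 tested genes among 15 listed for other damage tolerance, 10 had a higher mean and the median was 0.25. The ligase RNF8 and the helicase RECQL were highest at 0.45 and 0.44, and the deubiquitinase USP10 and the E2 variant UBE2V2 lowest at -0.28 and -0.24.

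Proliferation genes were counted in the same way. Of 18 S phase genes outside the 34, 13 had a higher mean in OVCAR5R, with a median log2 fold change of 0.23, and of 18 genes of G2 and mitosis also 13, with a median of 0.30. None passed the adjusted threshold. The highest and lowest S phase genes were CLSPN (0.77) and CCNE2 (0.62) and CDC45 (-1.14) and MCM5 (-0.89), and those of G2 and mitosis were TOP2A (0.53) and AURKB (0.53) and CENPE (-0.74) and CCNB1 (-0.14). The S phase list was low in OVCAR5 replicates 1 and 2, with median deviations from the 6-library mean of -0.27 and -0.25, and between 0.11 and 0.27 in the other libraries. For the 34 genes the deviations were 0.04, -0.23 and 0.10 in OVCAR5 and 0.17, -0.01 and 0.02 in OVCAR5R, so OVCAR5 replicate 2 was low by both lists and OVCAR5 replicate 1 by the S phase list. The part of proliferation in the values of the 34 genes was not tested. The checkpoint inhibitor CDKN1A and the ubiquitin ligase MDM2 had log2 fold changes of -0.10 and 0.05.

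Promoters were read for context, since DNA binding was not measured. The 150 bases upstream of the RefSeq start (GRCh38.p14) of the 3 genes with an unadjusted p under 0.05 are shown 5′ to 3′, for MAD2L2 (chr1:11691560-11691709, minus strand), RAD18 (chr3:8963473-8963622, minus strand), and ERCC5 (chr13:102845882-102846031, plus strand). Both strands were searched for the GC box GGGCGG, the ETS core CCGGAAG, the CCAAT box CCAAT, the cAMP response element TGACGTCA, and the E2F letters TTTGGCGC, TTTGCCGC, TTTCGCGC and TTTCCCGC. The RefSeq starts lie 91 (MAD2L2), 30 (RAD18) and 1188 (ERCC5) bases from the GENCODE starts used. By the GENCODE spans given above, the windows of RAD18 and ERCC5 lie inside the gene and that of MAD2L2 in part. The 3 windows are therefore not alike in position. Capitals mark the matches.
MAD2L2: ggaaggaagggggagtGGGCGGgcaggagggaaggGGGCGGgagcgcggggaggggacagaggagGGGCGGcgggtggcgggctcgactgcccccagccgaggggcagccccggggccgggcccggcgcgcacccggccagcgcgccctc
RAD18: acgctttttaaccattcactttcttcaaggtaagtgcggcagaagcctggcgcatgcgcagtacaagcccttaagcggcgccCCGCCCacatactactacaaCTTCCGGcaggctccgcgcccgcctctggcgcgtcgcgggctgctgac
ERCC5: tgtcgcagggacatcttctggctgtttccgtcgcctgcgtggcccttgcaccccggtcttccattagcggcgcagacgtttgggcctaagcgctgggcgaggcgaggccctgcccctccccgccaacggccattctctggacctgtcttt
MAD2L2 had 3 matches to the GC box, RAD18 had 1 match each to the GC box and the ETS core, and ERCC5 had none in these bases. In the 250 bases upstream, 25 of the 33 genes with an entry held a GC box (75.8%), compared with 42.6% of 35116 promoters, and 8 held an ETS core (24.2% against 8.52%). For each of the 33 genes only the entry nearest to the GENCODE start was used. The 35116 are all entries, including those of genes not tested here. The 2 sets are therefore unlike, and the differences between their shares were not tested. The CCAAT box was found in 9 (27.3% against 32.0%). The E2F letters were found in HLTF, PCNA, POLI, and XPC (12.1% against 2.79%), and the cAMP response element in none (1.65% of all). ERCC5 held a GC box in the longer window. A match says only that the letters are present.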

How the data were processed

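RNA-seq of total RNA from 3 OVCAR5 and 3 OVCAR5R cultures was analyzed from 1 table of 12309 rows, 12308 of them different. The authors deposited a normalized signal per gene and library, on a linear scale; the supplementary methods state quartile normalization. Per the labels' processing notes the build was hg38, and the aligner, counter, strand setting and annotation are not given in the sources used here. In each library the values above 0 were multiples, to 2 decimals, of what 1 estimated read is worth, and 61.7 to 65.3% of them were whole reads (tolerance 0.005 reads), so tests for counts were not used. Estimated reads came to 41300000, 35800000 and 41000000 in OVCAR5 and 53600000, 55100000 and 50300000 in OVCAR5R.

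The 11766 genes whose value reached 1 in 3 or more libraries were tested on log2(value + 1) by limma (version 3.58.1, R version 4.3.3, eBayes with trend, no covariates, two-sided, Benjamini-Hochberg over all genes tested). The pseudocount understates the fold change of low genes. Exact permutation tests were run on single genes with Python version 3.11.15, and figures were drawn with matplotlib version 3.10.9. Lengths and positions came from GENCODE release 29 (GRCh38), which held 12233 of 12305 symbols (99.4%) and all 34 genes studied, and promoters from RefSeq. The labels call the libraries replicates and the supplement triplicate cultures. P-values measure the spread between these cultures, which may be technical.

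Named were all 34 genes, the 2 highest and 2 lowest by log2 fold change of each other list of repair and phase genes, RPA1, RPA2, RPA3, CDKN1A, and MDM2. One further list and a gene that the rule picks are not reported here. The 34 genes were picked by symbol, with no value in the rule, but they and the other lists were chosen with earlier results of these data known. Of the markers, EPCAM, KRT7, KRT8, KRT18, KRT19, PAX8, WT1 and MUC16 were named after their values were seen. On simulated data, in which 200 of 11766 genes had a log2 fold change of 2, limma called 127 changed and 6 unchanged genes with each gene's own spread, and 200 and 21 with the median spread. Alternatives were quantile and upper-quartile scaling, a pseudocount of 0.1, no filter, a filter of at least 5, limma without trend, voom on estimated reads, a replicate block, leaving out single libraries, and the median of genes within 10 Mb subtracted. Correction for transcript length and summed rows of shared sequence were added after the data were seen. The deposited table held no columns of the authors' comparisons.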

Additional observations from a re-analysis of the deposited data

How the results depend on the processing

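None of the 34 genes passed the adjusted threshold under any of the 16 settings with a fit, and the lowest adjusted p was 0.219 (limma, MAD2L2 after correction for transcript length). The replicate numbers did not pair the cultures (correlations of deviations of -0.00, 0.18 and -0.12), and with the replicate block 1 gene was called higher and 4 lower over the whole table, none of the 34. With voom the whole table gave 0 higher and 0 lower. With 1 library left out it gave 0 to 6 higher and 0 to 18 lower, and 0 in both directions without OVCAR5R replicate 3. The number of the 34 genes with an unadjusted p under 0.05 was 1 to 4 with a library left out, and 1 without OVCAR5R replicate 1 or 2. The shares over all genes in these fits are not given here. With all 6 libraries the number was 3 of the 34, and the share over all genes was 10.4%. The log2 fold change kept its sign for 19 of the 34 genes and turned for 15, all of them uncalled. It turned under quantile scaling for HLTF (0.030), SHPRH (0.032) and ZRANB3 (0.073), under upper-quartile scaling for HLTF (0.021) and ZRANB3 (0.017), and under length correction for HLTF (0.016), SHPRH (0.0020), ZRANB3 (0.0032) and PCNA (0.0032). With single libraries left out it ran from -0.26 to 0.11 for CETN2, -0.16 to 0.11 for DDB2, -0.019 to 0.43 for GTF2H2, -0.15 to 0.11 for GTF2H3, -0.018 to 0.64 for GTF2H5, -0.16 to 0.31 for XPA, -0.062 to 0.35 for ERCC4, -0.16 to 0.044 for REV1, -0.013 to 0.20 for POLI, -0.54 to 0.039 for POLK, -0.22 to 0.034 for PCNA, -0.36 to 0.30 for HLTF, -0.20 to 0.093 for SHPRH, -0.17 to 0.16 for SMARCAL1, and -0.30 to 0.19 for ZRANB3. The causes were not tested. GTF2H2 gave no value under the filter of at least 5. The shares of counting error and of spread between cultures in these results were not separated.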
